A study of Mus musculus with 10 samples.

Results

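The change in liver messenger RNA with carbon tetrachloride (CCl4) in mice kept on a normal diet was measured against the oil vehicle. All genes with a deposited value of 1 or more in 2 or more of the 10 libraries were described, which were 12648 of 24062 genes. The study crossed 2 diets with CCl4 or oil, to ask how a Western diet and the toxin act together on fatty liver disease and liver tumours. The groups used here were CCl4 on normal diet for 12 weeks and for 24 weeks, against oil on normal diet for 12 weeks and for 24 weeks. The matching 4 Western-diet pools, CCl4 and oil at each duration, entered the fit and the comparison between diets, and 2 tumour libraries, from Western-diet mice with CCl4, were used in the filter and in 1 alternative fit. Livers of 4 mice were pooled for each library, and every combination of diet, treatment and duration had 1 such pool, so the pools of 12 and 24 weeks served as the repeats of a condition. P-values therefore rest on how far the group differences varied between the 2 durations over all 8 pools, after removal of a shared duration shift. They do not measure the spread between animals. The labels state neither the dose of CCl4 nor the strain, sex or age of the mice.

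CCl4 is harmless until the cytochrome Cyp2e1, which sits mainly in hepatocytes around the central vein, converts it to a radical that damages membranes there. Repeated injury brings in macrophages, turns stellate cells into matrix-making myofibroblasts and leads to a scar, while surviving hepatocytes divide and lower many of their specialised functions. A liver sample mixes these cells, and in such bulk RNA fewer cells of a type and less RNA per cell cannot be told apart.

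The 4 normal-diet libraries held 24368431 and 30137802 reads with CCl4 at 12 and 24 weeks, and 24975517 and 24082712 reads with oil. Values are normalised read counts, on a scale on which 1 read was worth 0.0398 and 0.0297 in the CCl4 pools and 0.0444 and 0.0457 in the oil pools. Pairs of values below are always in the order 12 weeks, 24 weeks. Changes are CCl4 minus oil on the scale log2(value + 1), 2 pools against 2, given with the standard error from the fit of 8 pools. A gene was called where limma's adjusted p was under 0.05. Pools named without a diet are normal-diet pools. The scale understates the change of genes with low values.

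CCl4 changed 3285 genes, or 26.0% of those tested. Of these, 1938 rose (15.3%) and 1347 fell (10.6%). Rises were larger than falls: the median change was 0.97 for genes that rose and -0.64 for genes that fell, against 0.0041 over all tested genes. A change of at least 2-fold was reached by 1172 called genes (9.27% of tested genes), of which 917 rose and 255 fell, and a change of at least 8-fold by 36 that rose and 18 that fell. Both CCl4 pools lay above both oil pools for 4244 tested genes (33.6%) and below both for 4019 (31.8%). Pools that lie apart are thus common in these data. Most genes below were named because they were called, so groups that lie apart describe them and are no further evidence. All 3285 called genes moved in the same direction at 12 and at 24 weeks, as did 9442 of the 12648 tested genes (74.7%). The fitted change is the mean of the changes at the 2 durations, and disagreement between them widens its error. The agreement among called genes is therefore largely set by the calling and is not a separate test. When each of the 8 liver pools was left out in turn, 789 of the called genes (561 rises and 228 falls) stayed called every time and none changed direction. The number called was 1021 without the 24-week oil pool, 1106 without the 24-week CCl4 pool and 1736 without the 12-week CCl4 pool.

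**Figure D1:**
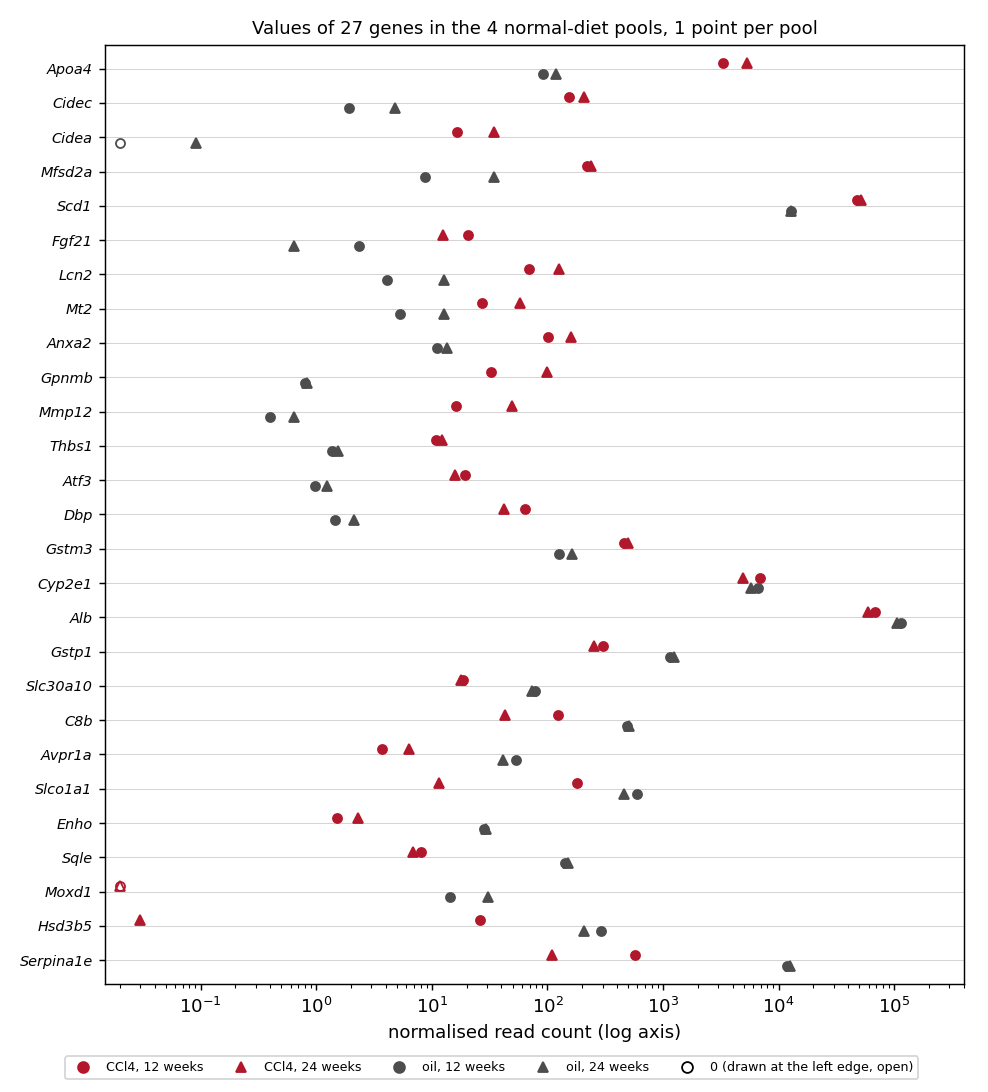
Normalised read counts (log axis) of 27 genes in the 2 CCl4 pools (red, upper point pair of each row) and the 2 oil pools (grey, lower pair), circles for 12 weeks and triangles for 24 weeks, 1 pool of 4 mice per point. Apoa4, Cidec and Gpnmb lie far to the right with CCl4, Serpina1e, Hsd3b5 and Sqle far to the left, and the points of Cyp2e1 overlap between the groups.

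Among single genes past the median level, the steepest 2 rises were in lipid-handling genes. Apoa4, an apolipoprotein of triglyceride-rich particles (chr9:46240844-46243458, build GRCm38.p6), had 3307 and 5345 in CCl4 livers, against 91.2 and 119 in oil livers. Cidec, a protein of large lipid droplets (chr6:113424634-113435760), had 154 and 206 in CCl4 livers, against 1.91 and 4.76 in oil livers. For both genes the lower CCl4 pool stood far above the higher oil pool. Apoa4 rose by 5.32 ± 0.22 (limma adjusted p = 9.33e-06) and Cidec by 5.45 ± 0.56 (adjusted p = 0.000511). The other 13 of the 15 largest rises ran from 2.54 for the membrane protein gene Tmem86a to 4.26 for Rgs16, a brake on G protein signalling. They took in the lysolipid transporter Mfsd2a at 3.64 ± 0.37, the droplet protein Plin4 at 2.86 ± 0.34, the iron-siderophore binder Lcn2 at 3.50 ± 0.26, the proteoglycan Gpc1 at 3.12 ± 0.21 and 3 fibrillar collagen genes.

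The steepest falls included genes that are typical of male mouse liver and genes of sterol synthesis. Serpina1e, a member of the alpha-1-antitrypsin family (chr12:103946931-103956897), had 567 and 109 in CCl4 livers, against 11691 and 12654 in oil livers. Hsd3b5, a steroid dehydrogenase, had 26.2 and 0.0297 in CCl4 livers, against 290 and 207 in oil livers, so that its 24-week CCl4 value stood on a single read. Serpina1e fell by 5.60 ± 0.54 (limma adjusted p = 0.0004) and Hsd3b5 fell by 5.54 ± 0.76 (adjusted p = 0.00169). The other 13 of the 15 largest falls ran from -2.77 for Msmo1 to -5.43 for Mup7 and included 4 major urinary protein genes, the selenium-binding protein Selenbp2, the fatty acid elongase Elovl3, the organic anion carrier Slco1a1, the vasopressin receptor Avpr1a and 4 enzymes of sterol synthesis. Members of the Serpina1 and Mup families are near-identical copies, so which member lost its reads is uncertain.

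**Figure D2:**
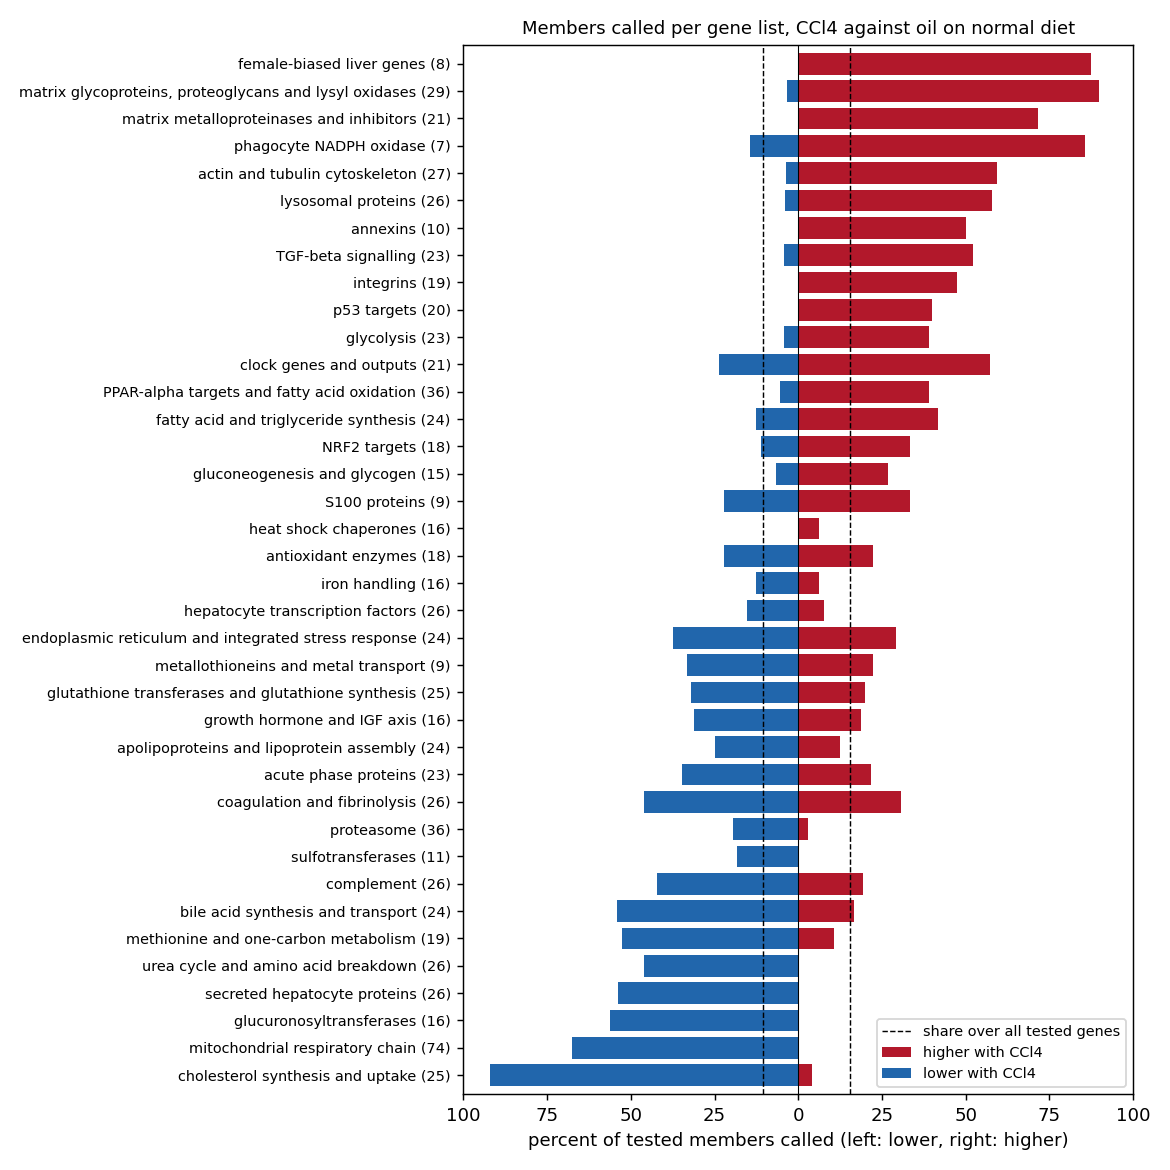
Percent of tested members called higher (red, right) and lower (blue, left) with CCl4 on normal diet in each of 38 gene lists, with the number tested in brackets; dashed lines mark 15.3% higher and 10.6% lower over all tested genes. Matrix genes have the largest share called higher (26 of 29) and cholesterol synthesis the largest share called lower (23 of 25).

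The enzyme that activates CCl4 did not separate the groups. Cyp2e1 had 6858 and 4867 in CCl4 livers, against 6614 and 5765 in oil livers, a change of -0.10 ± 0.24 (limma adjusted p = 0.793). The ranges overlapped, the 12-week pool being the higher of each group.

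Enzymes that detoxify reactive products moved in both directions. Of 25 glutathione transferase and glutathione synthesis genes, which attach glutathione to electrophiles or make it, 5 rose and 8 fell, with a median change of -0.29. Gstp1 had 304 and 251 in CCl4 livers, against 1151 and 1252 in oil livers, and fell by 2.12 ± 0.22 (limma adjusted p = 0.000512). Gstm3 had 455 and 501 in CCl4 livers, against 126 and 164 in oil livers, and rose by 1.73 ± 0.14 (adjusted p = 0.000162). In each gene the CCl4 and oil pools lay apart and the pools of a group lay close together. Gsta1 rose by 1.44 ± 0.18 and Gstm2 by 0.72 ± 0.13, while Gsta3, Gstm6 and Gstm7 fell by 0.71 ± 0.20, 0.73 ± 0.13 and 0.69 ± 0.11. Gstp2, at 1.51 and 1.37 with CCl4 and 3.24 and 7.91 with oil, shares much sequence with Gstp1 and cannot be judged apart from it. The counts depended on the pools fitted: without the 24-week CCl4 pool the list had 3 rises and 2 falls, without the 24-week oil pool or the 12-week CCl4 pool 3 and 4, and without either Western-diet oil pool 3 and 5.

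Targets of NRF2, the factor that answers oxidants and electrophiles, gave 6 rises and 2 falls among 18, with a median of 0.30. Cbr3, a carbonyl reductase, had 8.75 and 6.74 in CCl4 livers, against 1.06 and 1.33 in oil livers, and rose by 1.99 ± 0.21 (limma adjusted p = 0.000589). Srxn1, which repairs over-oxidised peroxiredoxins, rose by 1.22 ± 0.19, the efflux pump Abcc4 by 1.38 ± 0.20, the haem-degrading Hmox1 by 0.81 ± 0.13 and the quinone reductase Nqo1 by 0.82 ± 0.16. Against these, Gclc, the catalytic subunit for glutathione synthesis, fell by 0.55 ± 0.16 and Osgin1 fell by 0.99 ± 0.25, and Txnrd1 stood at 0.0046. Leaving out pools changed these counts: without the 24-week CCl4 pool 5 targets rose and 0 fell. Of 18 antioxidant enzymes 4 rose and 4 fell, the secreted Gpx3 (8.63 and 29.6 with CCl4, 4.39 and 4.12 with oil) by 1.71 ± 0.36 and Sod3 by 0.86 ± 0.12. Cytosolic Sod1 fell by 0.56 ± 0.14 and Prdx4, of the endoplasmic reticulum, by 0.94 ± 0.16. Other sets of pools gave other counts: without the 24-week oil pool or the 24-week CCl4 pool 1 antioxidant enzyme rose and 1 fell, without the 12-week CCl4 pool 2 and 2, without either Western-diet oil pool 3 and 2, and without the 12-week oil pool 2 and 6.

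Of 16 genes of glucuronosyltransferases, which attach a sugar acid to toxins and hormones, 0 rose and 9 fell (56.2%, against 10.6% of all tested genes), all of them in the Ugt2 and Ugt3 families, with a median of -0.43. Ugt2b1 had 601 and 306 in CCl4 livers, against 892 and 843 in oil livers, and fell by 1.01 ± 0.22 (limma adjusted p = 0.012). Ugt2b5 fell by 0.98 ± 0.14 and Ugt2a3 by 0.99 ± 0.19, whereas the bilirubin enzyme Ugt1a1 stood at -0.16. Reads can be split among these similar genes. With a pool left out the counts differed: without the 24-week oil pool or the 24-week CCl4 pool 2 of the list fell, and without the 12-week CCl4 pool or either Western-diet oil pool 5 did. Of 11 sulfotransferase genes 2 fell (18.2%), or 4 without either Western-diet CCl4 pool, and without the 24-week oil pool or the 24-week CCl4 pool 0 did, where limma's unadjusted p in the fit of all 8 pools was under 0.05 for 5 of them and edgeR called 2 and DESeq2 4.

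Metallothionein Mt2, which binds zinc and copper, had 27.4 and 57.5 in CCl4 livers, against 5.32 and 12.6 in oil livers, and rose by 2.13 ± 0.33 (limma adjusted p = 0.00286), and Mt1 rose by 1.53 ± 0.24. Slc30a10, the exporter of manganese, had 18.5 and 17.8 in CCl4 livers, against 78.1 and 73.7 in oil livers, and fell by 2.01 ± 0.13 (adjusted p = 7.07e-05). All CCl4 pools of the 3 genes lay outside the oil range. Of the list's 9 members 2 rose and 3 fell, or 2 and 1 without the 24-week oil pool, either CCl4 pool or either Western-diet oil pool. Hamp, the hormone hepcidin that blocks iron export, had 168 and 144 in CCl4 livers, against 327 and 438 in oil livers, and fell by 1.28 ± 0.20 (adjusted p = 0.00333). It was 1 of 3 called among 16 iron genes (18.8%, against 26.0% of all tested genes). Among these Id1 rose by 0.60 ± 0.18 and the iron sensor Tfr2 fell by 0.50 ± 0.11. Hamp alone was called without the 24-week oil pool or either CCl4 pool.

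Blood proteins made by hepatocytes took a smaller share of the reads. Alb, the gene of serum albumin, took 7.05% and 6.57% of reads in CCl4 livers, against 10.4% and 9.59% in oil livers. The Wilson 95% intervals of the CCl4 shares were 7.04 to 7.06 and 6.56 to 6.57. Its normalised counts were 68362 and 58738 in CCl4 livers and 114851 and 105693 in oil livers. The groups did not overlap, but the change of -0.80 ± 0.58 was not past the threshold (limma adjusted p = 0.339). The 26 secreted hepatocyte proteins together took 13.9% and 13.4% of reads with CCl4 and 19.6% and 18.9% with oil, and 14 of them fell and 0 rose, with a median of -0.68. Falls ran from 0.48 for Mug2 to 5.60 for Serpina1e, and the vitamin E carrier afamin (Afm) fell by 1.14 ± 0.13 and Fetub by 1.06 ± 0.15. Markers of hepatocytes summed to 100626 and 85777 in CCl4 livers and 156956 and 145961 in oil livers. Of 11 tested, 3 were called lower and 0 higher. That is 27.3% called, against 26.0% of all tested genes, of which 10.6% were called lower. The part of hepatocyte content in the falls of secreted proteins and markers was not tested. Of the hepatocyte markers 7 fell without either Western-diet CCl4 pool, and 1 fell without the 24-week oil pool, either normal-diet CCl4 pool or either Western-diet oil pool. The secreted list had 5 falls without the 24-week oil pool or the 24-week CCl4 pool, 7 without the 12-week CCl4 pool and 9 without either Western-diet oil pool.

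Of 26 complement genes 11 fell and 5 rose. The largest fall was in a subunit of the membrane attack complex. C8b had 123 and 43.2 in CCl4 livers, against 485 and 512 in oil livers, and fell by 2.75 ± 0.33 (limma adjusted p = 0.000941). C8a, next to it on chromosome 4, fell by 1.40 ± 0.16, and C6, C9, C8g and Hc (the gene of C5) fell by 0.98 ± 0.22, 0.91 ± 0.16, 0.83 ± 0.21 and 0.86 ± 0.13. The rises were in the C1q chains that start the classical pathway, C1qa, C1qb and C1qc, with C1qb at 84.3 and 134 in CCl4 livers, against 36.6 and 43.8 in oil livers, and the anaphylatoxin receptors C3ar1 and C5ar1. C1qb rose by 1.39 ± 0.15, C3ar1 by 1.43 ± 0.17 and C5ar1 by 1.54 ± 0.34. The central component C3 stood at -0.46. Counts varied with the pools used: without the 24-week oil pool 6 fell and 4 rose, and without the 24-week CCl4 pool 4 fell and 4 rose.

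Of 26 coagulation and fibrinolysis genes 12 fell and 8 rose. Factor XI (F11) had 39.1 and 29.6 in CCl4 livers, against 84.3 and 74.6 in oil livers, and fell by 1.20 ± 0.16 (limma adjusted p = 0.00155). The plasmin inhibitor Serpinf2 fell by 1.09 ± 0.15, plasminogen (Plg) by 0.90 ± 0.18, F7 by 0.92 ± 0.19 and F10 by 0.88 ± 0.14. The plasminogen activators Plat and Plau rose by 2.32 ± 0.28 and 1.49 ± 0.33, and Vwf, of endothelial cells, by 1.52 ± 0.19. Single pools moved these counts: without the 24-week CCl4 pool 3 rose and 3 fell, without the 24-week oil pool 3 and 4, and without the 12-week CCl4 pool 6 and 6.

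Acute phase proteins, the plasma proteins that liver changes in inflammation, gave 5 rises, 8 falls and 10 uncalled genes among 23, or 4 rises and 5 falls without the 24-week oil pool and 5 rises and 4 falls without the 24-week CCl4 pool. The fibrinogen chains Fga, Fgb and Fgg fell by 1.18 ± 0.20, 1.19 ± 0.19 and 1.18 ± 0.19, and Crp by 0.85 ± 0.12. Fgb had 2608 and 2270 in CCl4 livers, against 5932 and 5227 in oil livers. Lcn2 had 69.6 and 126 in CCl4 livers, against 4.13 and 12.6 in oil livers, and Il1rn, the interleukin-1 receptor antagonist, had 11.9 and 16.9 with CCl4 and 1.77 and 1.60 with oil. Il1rn rose by 2.50 ± 0.22 and Orm3 by 2.49 ± 0.22, both with CCl4 pools clear of the oil pools. The amyloid genes Saa1, Saa2 and Saa3 stood at 0.10, 0.65 and -0.50, and haptoglobin (Hp) at 0.010.

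Nitrogen and amino acid metabolism fell without exception among called genes. Of 26 urea cycle and amino acid breakdown genes 12 fell and 0 rose, with a median of -0.61. Agxt, which clears glyoxylate, had 155 and 96.2 in CCl4 livers, against 456 and 403 in oil livers, and fell by 1.81 ± 0.17 (limma adjusted p = 0.000325). Hal, of histidine breakdown, fell by 1.65 ± 0.25, Gls2 by 1.05 ± 0.18, and the urea cycle enzymes Otc, Asl and Arg1 by 0.66 ± 0.17, 0.79 ± 0.23 and 0.76 ± 0.23. Cps1, which starts the cycle, stood at -0.63 and was not called, and Glul, which marks the cells next to the central vein, stood at 0.61. The counts depended on the pools fitted: without the 24-week oil pool or the 24-week CCl4 pool 4 members fell, and without the 12-week CCl4 pool 6 did.

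The methionine cycle and folate metabolism gave 10 falls and 2 rises among 19, with a median of -0.53. Cth, which makes cysteine, had 261 and 191 in CCl4 livers, against 655 and 922 in oil livers, and fell by 1.79 ± 0.29 (limma adjusted p = 0.00375). Gnmt, which uses up surplus methyl groups, fell by 1.5 ± 0.30, Cbs by 1.0 ± 0.12 and Nnmt by 1.54 ± 0.25. Mthfd1l, a mitochondrial folate enzyme, had 6.28 and 8.82 in CCl4 livers, against 0.532 and 1.24 in oil livers, and rose by 2.19 ± 0.23 (adjusted p = 0.000531). The groups did not overlap in any of the genes just named. Leaving out pools changed these counts: without the 24-week oil pool 1 rose and 3 fell, and without the 24-week CCl4 pool 1 and 4.

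Of 24 genes of bile acid synthesis and transport 13 fell and 4 rose, and synthesis, uptake and export each held falls. Cyp7b1, the oxysterol hydroxylase of the alternative pathway, had 73.8 and 24.6 in CCl4 livers, against 356 and 379 in oil livers, and fell by 3.07 ± 0.31 (limma adjusted p = 0.000504). Cyp8b1 fell by 0.94 ± 0.23, the bile acid importer Slc10a1 by 1.01 ± 0.26 and the bile salt pump Abcb11 by 0.74 ± 0.13, while Cyp7a1, the rate-limiting enzyme of the classical pathway, stood at 0.64. Abcg5, which with Abcg8 pumps sterols into bile, had 211 and 203 in CCl4 livers, against 86.7 and 72.3 in oil livers, and rose by 1.38 ± 0.13 (adjusted p = 0.000338). Abcg8 rose by 1.15 ± 0.19 and the phospholipid pump Abcb4 by 0.68 ± 0.14. Other sets of pools gave other counts: without the 24-week oil pool 3 rose and 5 fell, and without the 24-week CCl4 pool 4 and 5.

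Nuclear genes of the mitochondrial respiratory chain fell by small amounts, but the count fell steeply when some single pools were left out. Of 74 tested members 50 fell and 0 rose, with a median of -0.53 and a largest fall of 0.82 for Ndufb9. Ndufb11, a complex I subunit, had 106 and 94.7 in CCl4 livers, against 168 and 182 in oil livers, and fell by 0.80 ± 0.13 (limma adjusted p = 0.00376). Together the list took 1.24% and 1.22% of reads in CCl4 livers and 1.35% and 1.45% in oil livers. Only Ndufb11 stayed called whichever pool was left out. With a pool left out the counts differed: without the 24-week oil pool or the 24-week CCl4 pool 1 member fell, without the 12-week CCl4 pool 10, and without either Western-diet oil pool 18. In the proteasome list 7 of 36 fell and Psmd8 rose (22.2% called, against 26.0% of all tested genes). Counts varied with the pools used: without the 24-week oil pool 0 proteasome genes were called, where 23 of the 36 had an unadjusted limma p under 0.05 in the fit of all pools and edgeR called 7 and DESeq2 9. Single pools moved these counts: without the 12-week oil pool 15 fell and 1 rose, without the 24-week CCl4 pool 0 fell and 1 rose, without the 12-week CCl4 pool 2 fell, and without either Western-diet oil pool 1 fell and 1 rose.

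Of 24 genes of the endoplasmic reticulum and integrated stress responses 9 fell and 7 rose. Hspa5, the main chaperone of the endoplasmic reticulum, had 829 and 637 in CCl4 livers, against 1150 and 1860 in oil livers, a fall of 1.01 ± 0.24 (limma adjusted p = 0.0183), and Sdf2l1, Manf and Pdia4 fell by 1.57 ± 0.34, 1.19 ± 0.28 and 0.80 ± 0.19. The 24-week oil pool was the highest for each of these 4 genes. Atf3, a stress-induced transcription factor, had 19.3 and 15.7 in CCl4 livers, against 0.976 and 1.24 in oil livers, and rose by 3.13 ± 0.26 (adjusted p = 0.000194). Nupr1 rose by 1.65 ± 0.30 and Trib3 by 1.35 ± 0.26, whereas Asns, which makes asparagine, fell by 1.71 ± 0.30 and Atf4 by 0.76 ± 0.14. The counts depended on the pools fitted: without the 24-week oil pool 2 rose and 3 fell, without the 24-week CCl4 pool 2 rose and 1 fell, and without the 12-week CCl4 pool 4 rose and 7 fell.

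**Figure D3:**
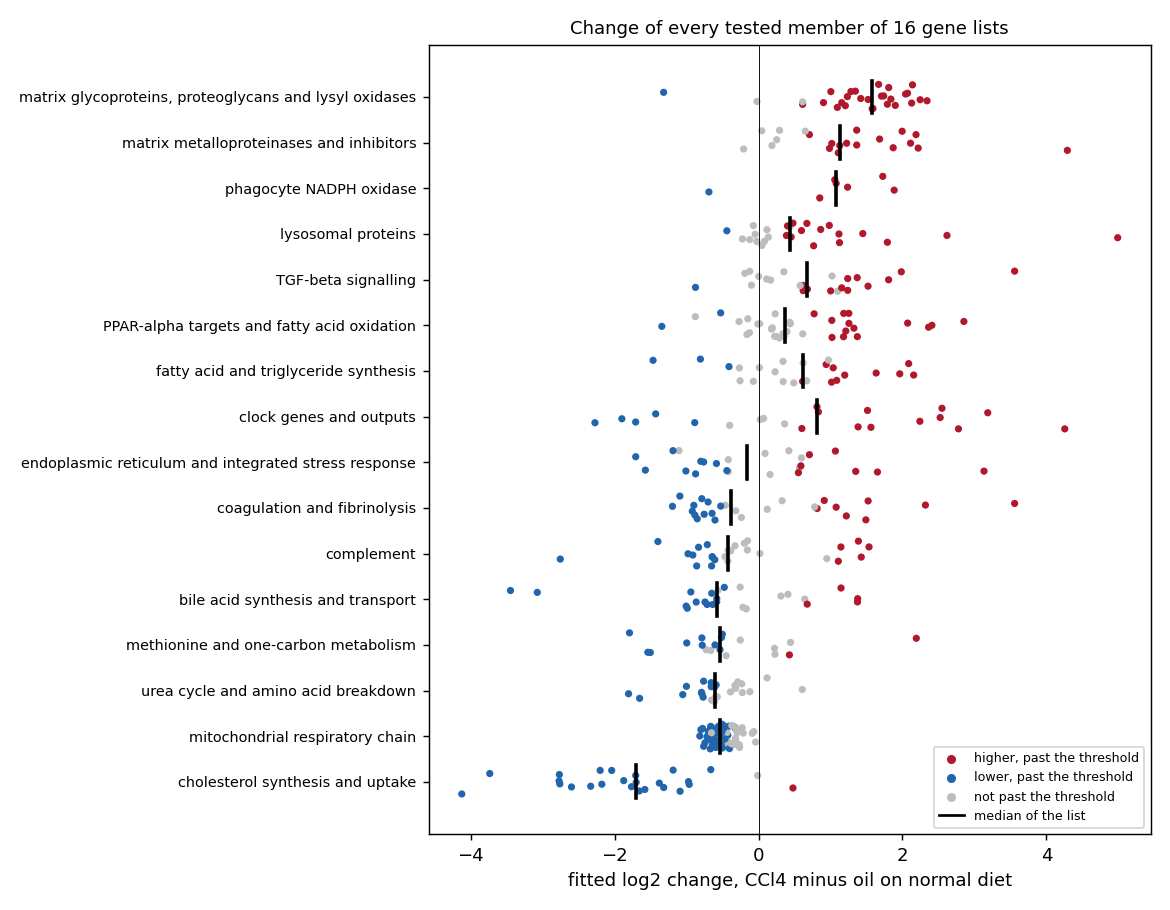
Fitted log2 change (CCl4 minus oil on normal diet, horizontal axis) of every tested member of 16 gene lists, 1 point per gene, red where called higher, blue where called lower and grey where not called; the black bar is the median of the list. Cholesterol synthesis lies left of 0 with a median of -1.71, matrix genes right of 0 with a median of 1.58, and complement and coagulation have members called on each side.

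Of 36 targets of PPAR-alpha, the receptor that turns on fat burning, 14 rose, 2 fell and 20 were not called, with a median of 0.37, and 11 rises stayed called whichever pool was left out. Fgf21, a fasting hormone, had 20.4 and 12.4 in CCl4 livers, against 2.35 and 0.640 in oil livers, and rose by 2.85 ± 0.55 (limma adjusted p = 0.00772). Cpt1a, the gate of mitochondrial fat burning, had 785 and 647 in CCl4 livers, against 339 and 278 in oil livers, and rose by 1.21 ± 0.14 (adjusted p = 0.00073). The pools with CCl4 were the higher ones in both genes. Ppara itself rose by 1.02 ± 0.13, the thioesterases Acot2 and Acot3 by 2.41 ± 0.19 and 2.36 ± 0.27 and the pantetheinase Vnn1 by 2.07 ± 0.25, while the core beta-oxidation enzymes Acadm, Acadl and Hadha stood at 0.23, 0.18 and 0.25.

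Of 24 genes of fatty acid and triglyceride synthesis 10 rose, 3 fell and 11 were not called, with a median of 0.62. Scd1, which puts a double bond into saturated fatty acids (chr19:44394450-44407709), took 4.92% and 5.81% of all reads in CCl4 livers, against 1.16% and 1.16% in oil livers. Its values were 47692 and 52024 in CCl4 livers and 12830 and 12736 in oil livers, a rise of 1.96 ± 0.37 (limma adjusted p = 0.00699). Fads2, Elovl5 and Elovl6, which desaturate and lengthen fatty acids, rose by 1.63 ± 0.17, 1.20 ± 0.16 and 1.09 ± 0.14, and Fasn by 0.94 ± 0.20. The 3 falls within the list were in the supply of carbon for these steps. Acss2, which makes acetyl-CoA from acetate, had 136 and 98.0 in CCl4 livers, against 317 and 325 in oil livers, and fell by 1.46 ± 0.13. Acly fell by 0.81 ± 0.13 and the citrate carrier Slc25a1 by 0.41 ± 0.11. The elongase Elovl3, which was not in the list, had 86.2 and 61.1 in CCl4 livers, against 850 and 1010 in oil livers. It fell by 3.66 ± 0.24. Leaving out pools changed these counts: without the 24-week CCl4 pool 7 rose and 1 fell.

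Apolipoprotein genes did not follow Apoa4. Of 24 members 3 rose and 6 fell. Apoa1, the main protein of high-density lipoprotein, lies beside Apoa4 at chr9:46228630-46230469 and had 6650 and 5360 in CCl4 livers, against 10023 and 9637 in oil livers, a fall of 0.72 ± 0.22 (limma adjusted p = 0.0445). Apom fell by 1.78 ± 0.23 and Apoc2, which activates lipoprotein lipase, rose by 1.20 ± 0.13. Apob and Mttp, which build very-low-density lipoprotein, stood at 0.086 and 0.061. Other sets of pools gave other counts: without the 24-week oil pool or the 24-week CCl4 pool 2 rose and 1 fell, and without the 12-week CCl4 pool or either Western-diet oil pool 2 and 2. Of 23 glycolysis genes 9 rose and 1 fell, with a median of 0.39. Pklr, the liver form of pyruvate kinase, had 351 and 340 in CCl4 livers, against 171 and 160 in oil livers, and rose by 1.05 ± 0.12, and Pkm, the form of other tissues, rose by 1.44 ± 0.17. Hexokinase Hk2, low in normal hepatocytes, rose by 2.12 ± 0.32 and aldolase Aldoc fell by 1.63 ± 0.16. With a pool left out the counts differed: without the 24-week oil pool 5 rose and 1 fell, and without the 24-week CCl4 pool 4 and 1. In 15 gluconeogenesis and glycogen genes 4 rose (Pcx, Pck2, Gys2 and Gbe1, by 0.78 to 0.94) and G6pc, which releases glucose, fell by 0.58 ± 0.17. That is 33.3% called, against 26.0% of all tested genes. The fall of G6pc and part of the rises were not called without the 24-week CCl4 pool. Gys2 had 231 and 183 with CCl4 and 131 and 109 with oil. On Western diet it had 237 and 193 with CCl4 and 244 and 208 with oil, so that its normal-diet oil pools alone were low.

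Cholesterol synthesis and uptake genes fell with few exceptions: 23 of 25 members fell and 1 rose, 20 of the falls were by at least 2-fold, and 22 of the falls stayed called whichever pool was left out. Hmgcs1, an early enzyme of the pathway, had 127 and 134 in CCl4 livers, against 626 and 584 in oil livers, and fell by 2.20 ± 0.16. Msmo1, which removes methyl groups from lanosterol products, had 46.3 and 34.2 in CCl4 livers, against 254 and 301 in oil livers, and fell by 2.77 ± 0.20. Every CCl4 value of both enzymes lay far under the lower oil value, and the pools of a group lay close together. The regulators Insig1, Stard4 and Srebf2 fell by 1.70 ± 0.14, 1.19 ± 0.18 and 0.66 ± 0.12.

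The promoters of sterol genes that fell are shown because these genes moved together. The windows hold the 250 bases before the start of each gene in RefSeq on GRCm38.p6, read 5′ to 3′ on the gene's strand, with CCAAT or its reverse ATTGG in capitals. Idi1 is at chr13:8885356-8885605 on the plus strand, Hmgcs1 at chr13:119690101-119690350 on the plus strand and Msmo1 at chr8:64733579-64733828 on the minus strand.
Idi1: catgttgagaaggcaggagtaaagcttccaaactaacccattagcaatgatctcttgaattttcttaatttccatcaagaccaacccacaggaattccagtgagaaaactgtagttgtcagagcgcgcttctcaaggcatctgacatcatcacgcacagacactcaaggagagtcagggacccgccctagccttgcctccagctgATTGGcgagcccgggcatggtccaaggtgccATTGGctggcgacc
Hmgcs1: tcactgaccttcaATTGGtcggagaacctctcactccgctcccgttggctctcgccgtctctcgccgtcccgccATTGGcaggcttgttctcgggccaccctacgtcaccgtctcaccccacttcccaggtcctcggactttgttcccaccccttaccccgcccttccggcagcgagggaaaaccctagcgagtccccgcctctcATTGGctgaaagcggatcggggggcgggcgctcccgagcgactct
Msmo1: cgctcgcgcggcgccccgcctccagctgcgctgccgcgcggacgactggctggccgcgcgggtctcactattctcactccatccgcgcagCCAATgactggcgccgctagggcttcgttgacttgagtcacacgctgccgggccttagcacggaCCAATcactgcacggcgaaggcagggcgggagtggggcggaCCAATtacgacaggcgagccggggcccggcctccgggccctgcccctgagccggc
The Idi1 window held 2 such matches, and the Hmgcs1 and Msmo1 windows 3 each. CCAAT on either strand was found in 16 of the 17 listed sterol genes with a window (94.1%), against 3871 of 9574 tested genes with a window (40.4%). The letters TCACNCCAC, one form of the sterol element, were found in 1 of the 17 (Hmgcs1) and in 1.35% of the 9574 genes. These letters were searched after the falls were known, the matches describe sequence only, and a match is not a bound site.

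Of 21 genes of the circadian clock and its outputs 12 rose and 5 fell, and 10 of the rises and all 5 falls stayed called whichever pool was left out. Arntl, the activator also called Bmal1, had 5.53 and 6.12 in CCl4 livers, against 33.5 and 30.4 in oil livers, and fell by 2.27 ± 0.17 (limma adjusted p = 0.000149). Its partners Npas2 and Clock fell by 1.71 ± 0.30 and 0.89 ± 0.15, and Nfil3, a repressor of D-box genes, by 1.90 ± 0.21. Per3, of the repressor arm, had 21.7 and 15.8 in CCl4 livers, against 0.532 and 2.01 in oil livers, and rose by 3.18 ± 0.34 (adjusted p = 0.00055). Ciart, another repressor, had 7.24 and 5.97 in CCl4 livers, against 0.0887 and 0.595 in oil livers, and rose by 2.52 ± 0.37. In all these genes the groups lay apart at each duration. The repressors did not move alike: Cry1, with 8.75 and 6.62 in CCl4 livers, against 24.8 and 19.9 in oil livers, fell by 1.43 ± 0.22, and Nr1d1, which represses Arntl, stood at 0.070. For Per3 the Western-diet pools had 28.7 and 18.2 with CCl4 and 19.3 and 14.5 with oil, so that the normal-diet oil pools alone were low. The median change of the list was 0.81 on normal diet and 0.17 on Western diet, where the oil pools of Usp2, a clock output, had 31.5 and 43.3, against 3.19 and 8.55 in the normal-diet oil pools. The labels do not state the hour at which livers were taken, and its part in these changes was not tested.

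The Ciart promoter is shown because it held the clock element CACGTG, the E-box, 3 times. The window is chr3:95882229-95882478 on the minus strand of GRCm38.p6, from RefSeq, with the E-boxes in capitals.
Ciart: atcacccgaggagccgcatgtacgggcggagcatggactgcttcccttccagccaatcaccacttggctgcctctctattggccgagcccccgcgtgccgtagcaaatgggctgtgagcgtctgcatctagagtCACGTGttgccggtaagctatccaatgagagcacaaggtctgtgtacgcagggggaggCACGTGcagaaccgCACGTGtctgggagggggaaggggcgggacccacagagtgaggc
CACGTG, which reads the same on either strand, was found in 5 of 17 clock genes with a window (29.4%: Bhlhe41, Ciart, Cry1, Per1 and Tef) and in 9.92% of the 9574 tested genes with one. Of these 5, Cry1 fell, and Bhlhe41, Ciart, Per1 and Tef rose by 2.24 ± 0.27, 2.52 ± 0.37, 1.38 ± 0.16 and 1.56 ± 0.13. The D-box letters TTATGNAA were found in 2 of the 17 and in 2.54% of the 9574. Both were searched with the changes known and say nothing of which factor was bound.

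Of 20 listed liver genes known to be higher in female mice 8 passed the filter. Of these 8, 7 rose and 0 fell, with a median of 2.32, and 5 stayed called whichever pool was left out. A gene under 1 in both normal-diet oil pools, such as Cyp2b9, could pass the filter only through other pools. These counts are therefore a description and not a test. Cyp2b9 had 9.27 and 19.1 in CCl4 livers, against 0.133 and 0.640 in oil livers, and rose by 3.40 ± 0.37 (limma adjusted p = 0.000659). The neurotrophin receptor Ntrk2 had 33.8 and 36.9 in CCl4 livers, against 2.53 and 4.67 in oil livers, and rose by 3.02 ± 0.28. No CCl4 value of either gene was near an oil value on normal diet. On Western diet Cyp2b9 had 12.3 and 8.30 with CCl4 and 16.5 and 9.49 with oil, so that its normal-diet oil pools alone were low, while Ntrk2 had 13.5 and 42.1 with CCl4 and 2.73 and 4.97 with oil. Cyp2a4 rose by 3.65 ± 0.59 but has near-identical relatives. In the growth hormone and IGF axis 5 of 16 fell and 3 rose. The receptor Ghr fell by 0.68 ± 0.19, the hormone Igf1 by 0.50 ± 0.16 and its carrier Igfals by 1.24 ± 0.20, while the receptor Igf1r rose by 1.15 ± 0.22 and Igfbp7 by 1.18 ± 0.19. Counts varied with the pools used: without the 24-week CCl4 pool 1 rose and 1 fell, without the 24-week oil pool 1 and 2, without the 12-week CCl4 pool 3 and 1, without the 12-week oil pool or the 24-week Western-diet oil pool 3 and 2, and without the 12-week Western-diet oil pool 3 and 3. Of 26 hepatocyte transcription factors 4 fell and 2 rose (23.1% called, against 26.0% of all tested genes), with a median of -0.036, and Hnf4a stood at -0.42. Single pools moved these counts: without the 24-week oil pool 2 rose and 1 fell, without either CCl4 pool 1 and 1, and without the 12-week oil pool 1 and 2.

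Matrix genes rose almost throughout. Of 29 glycoproteins, proteoglycans and lysyl oxidases 26 rose and 1 fell, with a median of 1.58, and 15 rises stayed called whichever pool was left out. Thbs1, a matrix protein that activates TGF-beta, had 10.9 and 12.1 in CCl4 livers, against 1.38 and 1.56 in oil livers, and rose by 2.34 ± 0.26 (limma adjusted p = 0.000757). Nid1, of basement membranes, had 43.4 and 80.4 in CCl4 livers, against 11.9 and 11.4 in oil livers, and rose by 2.25 ± 0.24. The crosslinking enzymes Lox, Loxl1 and Loxl2 rose by 1.35 ± 0.29, 1.81 ± 0.37 and 1.59 ± 0.22, and elastin (Eln), fibrillin (Fbn1) and lumican (Lum) by 1.74 ± 0.29, 1.79 ± 0.24 and 2.07 ± 0.20. Loxl4 ran the other way, with 2.23 and 2.85 in CCl4 livers, against 7.01 and 8.65 in oil livers, and fell by 1.32 ± 0.21. Fibronectin (Fn1), which hepatocytes also secrete, stood at -0.021. In 26 of the 27 called genes the change was larger at 24 than at 12 weeks. The counts depended on the pools fitted: without the 24-week oil pool 15 rose and 1 fell, and without the 24-week CCl4 pool 16 and 1.

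Of 27 listed matrix-degrading enzymes and inhibitors 21 passed the filter. Of these 21, 15 rose (71.4%, against 15.3% of all tested genes) and 0 fell, with a median of 1.13. Members under 1 in both normal-diet oil pools, such as Mmp13 and Mmp7, could pass only through other pools. The counts are therefore a description and not a test. Mmp13, an interstitial collagenase, had 3.98 and 5.02 in CCl4 livers, against 0.355 and 0.183 in oil livers, and rose by 2.11 ± 0.34 (limma adjusted p = 0.00336). Mmp2 rose by 2.0 ± 0.30, Adamts2, which trims procollagen, by 1.87 ± 0.28, and the inhibitors Timp1, Timp2 and Timp3 by 1.68 ± 0.36, 1.13 ± 0.28 and 1.36 ± 0.23. Mmp7 was uneven, with 1.31 and 10.1 in CCl4 livers, against 0.0444 and 0.183 in oil livers. Leaving out pools changed these counts: without the 24-week oil pool 6 rose and without the 24-week CCl4 pool 7.

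In TGF-beta signalling, the main fibrogenic pathway, 12 of 23 rose and 1 fell, with a median of 0.68. The ligand Tgfb1 had 12.1 and 19.5 in CCl4 livers, against 6.83 and 7.5 in oil livers, and rose by 1.0 ± 0.19 (limma adjusted p = 0.00701). Its receptors Tgfbr1 and Tgfbr2 rose by 0.62 ± 0.17 and 1.24 ± 0.15, the latency proteins Ltbp1 and Ltbp3 by 1.37 ± 0.24 and 1.98 ± 0.33, and the target Ctgf by 1.16 ± 0.22. Inhbe, an activin chain made by hepatocytes, rose by 1.81 ± 0.26 and Inhba fell by 0.88 ± 0.20, while Smad2, Smad3 and Smad4, which carry the signal, stood at -0.10, -0.12 and -0.19. Other sets of pools gave other counts: without the 24-week oil pool 5 rose and 0 fell, and without the 24-week CCl4 pool 6 and 0.

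Markers of stellate cells and myofibroblasts summed to 555 and 780 in CCl4 livers, against 398 and 407 in oil livers, and 9 of 15 rose. Pdgfrb, the receptor that drives their growth, had 15.9 and 25.6 in CCl4 livers, against 5.99 and 5.44 in oil livers, and rose by 1.66 ± 0.23 (limma adjusted p = 0.00187). Acta2, of contractile myofibroblasts, rose by 1.24 ± 0.28, and Lrat, which stores vitamin A in quiescent stellate cells, rose too, by 1.04 ± 0.17, while Des stood at 0.60. Endothelial markers summed to 578 and 719 with CCl4 and 461 and 404 with oil, with 11 of 21 called higher. Among bile duct and progenitor markers 6 of 13 rose: Spp1 (osteopontin) had 137 and 325 in CCl4 livers, against 49.9 and 37.3 in oil livers, and Krt7 and Krt19 stood at 1.06 and 0.82, not called. How far cell numbers account for the rise of matrix genes was not tested. With a pool left out the counts differed: without the 24-week oil pool 4 stellate, 3 endothelial and 1 bile duct markers rose, and without the 24-week CCl4 pool 5, 3 and 1. Without either Western-diet oil pool 7 endothelial markers rose, without the 12-week CCl4 pool 3 bile duct markers, and without either Western-diet CCl4 pool 10 of them.

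Of 19 integrins 9 rose and 0 fell, including the leukocyte chains Itgax, Itgb2 and Itgal at 2.38 ± 0.28, 1.56 ± 0.15 and 1.20 ± 0.19, and the stellate cell chain Itga8 at 1.53 ± 0.34. Of 27 actin and tubulin genes 16 rose and 1 fell, with the intermediate filament Vim at 47.9 and 84.2 in CCl4 livers, against 18.0 and 23.4 in oil livers, a rise of 1.58 ± 0.15 (limma adjusted p = 0.000404). Capg and Tagln2 rose by 2.04 ± 0.21 and 1.74 ± 0.23, while beta-actin (Actb), at 536 and 570 with CCl4 and 519 and 507 with oil, stood at 0.11 ± 0.15 (adjusted p = 0.629). Annexin A2 (Anxa2), which binds membranes where calcium enters, had 101 and 160 in CCl4 livers, against 11.2 and 13.5 in oil livers, and rose by 3.27 ± 0.27. Anxa5 rose by 1.95 ± 0.28 and S100a11 by 2.52 ± 0.26. In all, 5 of 10 annexins rose, and 3 of 9 S100 genes rose and 2 fell, with the neutrophil pair S100a8 and S100a9 at 0.38 and 0.11. Counts varied with the pools used: without the 24-week CCl4 pool 5 integrins, 10 scaffold genes, 2 annexins and 2 S100 genes rose and 1 S100 gene fell. Single pools moved these counts: without the 24-week oil pool 5 integrins, 9 scaffold genes, 3 annexins and 2 S100 genes rose and 1 integrin fell, without the 12-week CCl4 pool 11 scaffold genes and 2 S100 genes, and without either Western-diet oil pool 3 S100 genes rose and 0 fell.

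Markers of recruited macrophages summed to 270 and 609 in CCl4 livers, against 97.3 and 153 in oil livers, and 11 of 12 rose, 8 of them whichever pool was left out. Markers of resident Kupffer cells summed to 511 and 623 in CCl4 livers and 250 and 347 in oil livers. Of these 10 markers 4 rose (40%, against 15.3% of all tested genes). They were Cd5l, Emr1, Csf1r and Folr2, at 1.47 ± 0.29, 1.19 ± 0.20, 1.14 ± 0.17 and 0.85 ± 0.24. The defining Clec4f, Vsig4 and Timd4 stood at 0.59, 0.41 and -0.69 and were not called. The counts depended on the pools fitted: without the 12-week oil pool or the 24-week CCl4 pool 2 of the Kupffer cell markers rose. Of the 7 tested genes of the phagocyte oxidase list 6 rose: Cybb, its catalytic subunit, had 44.5 and 63.2 in CCl4 livers, against 10.9 and 17.1 in oil livers, and rose by 1.88 ± 0.12 (limma adjusted p = 6.66e-05). Nox4, the relative found in hepatocytes and fibroblasts, fell by 0.69 ± 0.16. Leaving out pools changed these counts: without the 24-week CCl4 pool 4 oxidase genes rose and 0 fell. Of 26 lysosomal genes 15 rose and Lamp2 fell, with a median of 0.44. Cathepsin S (Ctss), of antigen-presenting cells, had 96.5 and 167 in CCl4 livers, against 31.5 and 41.2 in oil livers, and rose by 1.79 ± 0.15, while cathepsins that most cells hold, Ctsb and Ctsl, stood at 0.44 and -0.22. Other sets of pools gave other counts: without the 24-week oil pool or the 24-week CCl4 pool 4 lysosomal genes rose and 0 fell.

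Other white cells left less trace. Of 9 T and NK cell markers Nkg7 rose and Cd4 fell (22.2% called, against 26.0% of all tested genes), and Cd3e stood at 0.065. None of 6 B and plasma cell markers was called by limma, with 2 at an unadjusted p under 0.05 and 2 called lower by edgeR and by DESeq2. Their sum was 7.16 and 7.27 in CCl4 livers, against 4.66 and 33.8 in oil livers, and the plasma cell gene Igj gave 18.6 of the sum of the 24-week oil pool. None of 7 dendritic cell markers was called by limma, with 2 at an unadjusted p under 0.05 and 2 called higher by edgeR and by DESeq2. With a pool left out the counts differed: without the 12-week oil pool 4 B and plasma cell markers fell, without either Western-diet CCl4 pool 1 fell, and without the 24-week oil pool 1 rose. Of 12 listed neutrophil markers only 4 passed the filter. Of these 4, Csf3r and Itgam rose (50%, against 15.3% of all tested genes), and Itgam is also among the markers of recruited macrophages. Neither call held without the 24-week oil pool or without the 24-week CCl4 pool, and not both held without the 12-week CCl4 pool. In the T and NK cell list no member was called without the 24-week oil pool or the 24-week CCl4 pool, where 3 had an unadjusted limma p under 0.05 in the fit of all pools, edgeR called 2 and DESeq2 3. Counts varied with the pools used: without the 12-week oil pool, the 12-week CCl4 pool or either Western-diet oil pool 1 of that list fell.

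Markers of fat cells differed sharply between pools. Cfd (adipsin) had 45.6 and 5.40 in CCl4 livers, against 0.177 and 0.640 in oil livers, and rose by 3.64 ± 0.71 (limma adjusted p = 0.00799), but was not called without the 12-week oil pool. The adrenergic receptor Adrb3 fell by 1.02, and was not called without either oil pool or the 12-week CCl4 pool. Adipoq, Plin1, Lep and Retn, which define fat cells, did not pass the filter. Alas2, of red cell precursors, fell by 0.96 ± 0.18, and was not called without the 24-week CCl4 pool.

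Targets of p53, which is active after DNA damage, gave 8 rises and 0 falls among 20, with a median of 0.52. Eda2r, a death receptor, had 5.53 and 6.71 in CCl4 livers, against 0.266 and 0.366 in oil livers, and rose by 2.43 ± 0.25 (limma adjusted p = 0.000525). On Western diet Eda2r had 14.4 and 8.13 with CCl4 and 6.79 and 7.08 with oil, so that its normal-diet oil pools alone were low. Phlda3 and Tnfrsf10b rose by 1.58 ± 0.19 and 1.33 ± 0.25. The classical targets Cdkn1a and Mdm2 stood at 0.83 and 0.063 and were not called. Without either CCl4 pool 4 targets rose, and without the 24-week oil pool 5. Of 16 heat shock chaperones Hspb1 rose by 1.12 ± 0.31 and none fell (6.25% called, against 26.0% of all tested genes). Hspa1b had 68.7 and 9.92 in CCl4 livers, against 25.5 and 35.4 in oil livers, so its pools crossed. Single pools moved these counts: without the 12-week oil pool 4 chaperones fell, without the 24-week oil pool 0 were called (3 at an unadjusted limma p under 0.05 in the fit of all pools, 1 called by edgeR and 1, lower, by DESeq2), and without either Western-diet CCl4 pool 2 rose.

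The change was wider at 24 than at 12 weeks. The standard deviation of the change over the 12648 genes was 0.75 at 24 weeks and 0.59 at 12 weeks, and 1253 genes were at least 2-fold higher and 416 at least 2-fold lower at 24 weeks, against 830 and 208 at 12 weeks. Of called genes, 1312 of 1938 rises and 1053 of 1347 falls were larger at 24 weeks. Each duration is 1 pool against 1, so these differences carry no test. For 460 genes (3.64%) the changes at the 2 durations were at least 2-fold apart. The widest gaps downward were in male-specific secreted proteins: Mup7 had 531 at 12 weeks and 3.44 at 24 weeks with CCl4, against 1962 and 2233 with oil. Slco1a1 had 180 and 11.6 in CCl4 livers, against 593 and 455 in oil livers. For both genes the oil pools stayed close together and the 24-week CCl4 pool fell far under the 12-week one. Gaps upward included Spp1, the actin-severing Gsn (35.8 and 80.3 with CCl4, 22.3 and 17.4 with oil) and Cyp4a14 (306 and 551 with CCl4, 193 and 129 with oil). Gapdh, often taken as a constant, had 317 and 507 in CCl4 livers and 384 and 244 in oil livers, with groups that overlap.

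**Figure D4:**
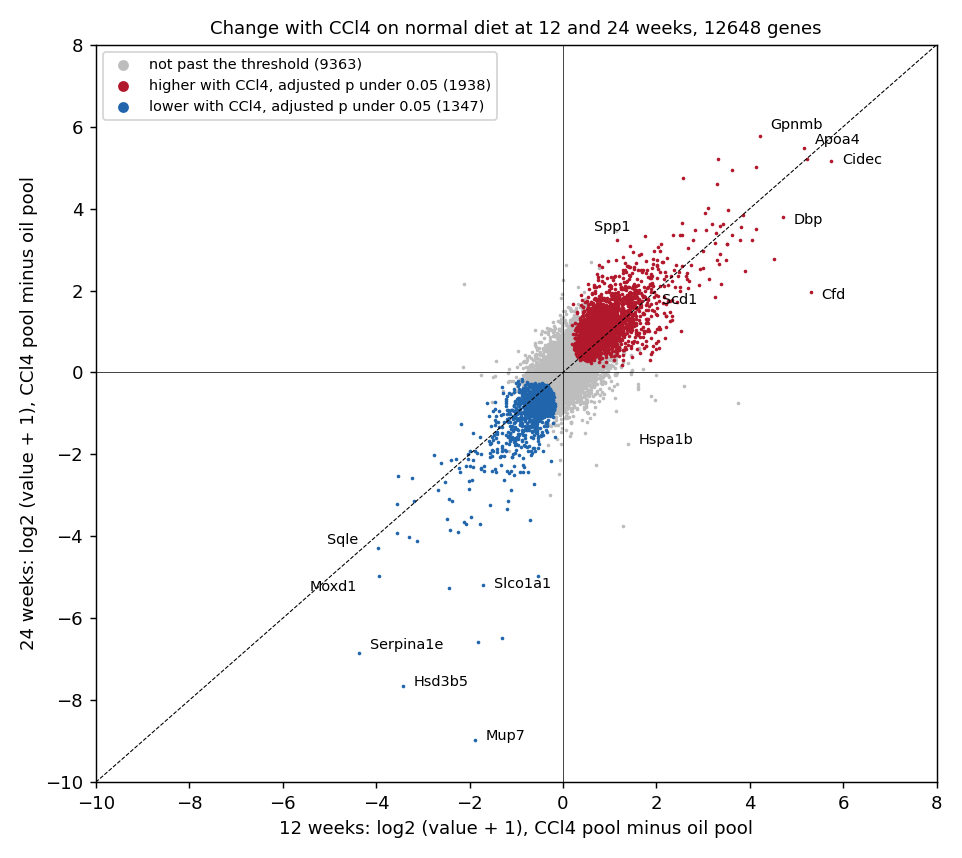
Change with CCl4 on normal diet at 12 weeks (horizontal) and 24 weeks (vertical), each 1 CCl4 pool minus 1 oil pool on the log2(value + 1) scale, for 12648 genes; red and blue mark the 1938 genes that rose and the 1347 that fell, and the dashed line marks equal change. Mup7, Hsd3b5 and Slco1a1 lie well below the line, and Hspa1b has opposite signs at the 2 durations.

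The normal-diet change was set against the change with CCl4 on a Western diet, which shares no pool with it. Of the 3285 genes called on normal diet 3118 (94.9%) had the same sign on the Western diet, and for 92.7% the absolute change was smaller there. The genes that rose on normal diet had a median change of 0.97 there and 0.58 on the Western diet, and those that fell -0.64 and -0.32. These genes were chosen on their normal-diet values, so the smaller size on the Western diet is a description and not a test. The difference itself was called by limma for 13 genes (0.103% of tested genes), with 1131 at an unadjusted p under 0.05. None of the 13 stayed called whichever pool was left out. The counts depended on the pools fitted: without the 12-week or the 24-week Western-diet oil pool 0 were called, with 615 and 682 at an unadjusted p under 0.05, and in the fit of all 8 pools edgeR called 9 and DESeq2 132. Leaving out pools changed these counts: without the 12-week and the 24-week Western-diet CCl4 pools 20 and 79 were called, and without the 24-week normal-diet CCl4 pool 21.

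For several of the 13 genes the oil pools themselves differed between the diets. Moxd1, a monooxygenase-like gene (chr10:24223517-24302783), had 0 in both CCl4 pools on normal diet, against 14.4 and 30.4 in the oil pools, and 0 in all 4 Western-diet pools. Against a floor of 3 reads per library it was at least 121-fold lower with CCl4 at 12 weeks and at least 341-fold lower at 24 weeks. Tff3, a mucosal repair peptide, had 1.67 and 1.16 in CCl4 livers, against 22.3 and 36.3 in oil livers, while the Western-diet pools had 1.54 and 1.98 with CCl4 and 0.855 and 1.19 with oil. Only the normal-diet oil pools were high in these 2 genes. Enho, the gene of the secreted peptide adropin, had 1.51 and 2.32 with CCl4 and 28.4 and 29.6 with oil on normal diet, against 1.65 and 1.32 with CCl4 and 5.13 and 4.49 with oil on Western diet. Dbp, a clock output factor (chr7:45705100-45710203), had 63.6 and 42.2 with CCl4 and 1.46 and 2.10 with oil on normal diet, against 62.4 and 50.1 with CCl4 and 55.9 and 38.4 with oil on Western diet. Here the normal-diet oil pools alone were low. Gstm3, with 455 and 501 with CCl4 and 126 and 164 with oil on normal diet, had 290 and 407 with CCl4 and 406 and 421 with oil on Western diet.

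For Cidea and Scara5 the diets differed in the CCl4 pools or in both kinds of pool. Cidea, a lipid droplet protein of brown fat that appears in fatty liver, had 16.4 and 34.4 with CCl4 and 0 and 0.0915 with oil on normal diet, against 0.154 and 0.919 with CCl4 and 0 and 0 with oil on Western diet. Scara5, a ferritin receptor, had 7.20 and 14.8 with CCl4 and 10.2 and 20.9 with oil on normal diet, against 14.1 and 22.3 with CCl4 and 2.31 and 4.93 with oil on Western diet. Cidea rose by 4.57 ± 0.28 on normal diet and stood at 0.57 on Western diet, a difference of 4.00 ± 0.40 (limma adjusted p = 0.00832). For Scara5 the changes were -0.46 and 2.09, a difference of -2.54 ± 0.22 (adjusted p = 0.00612). For Apoa4 they were 5.32 and 2.87, and for Sqle -4.12 and -2.45, each in the same direction on both diets.

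**Figure D5:**
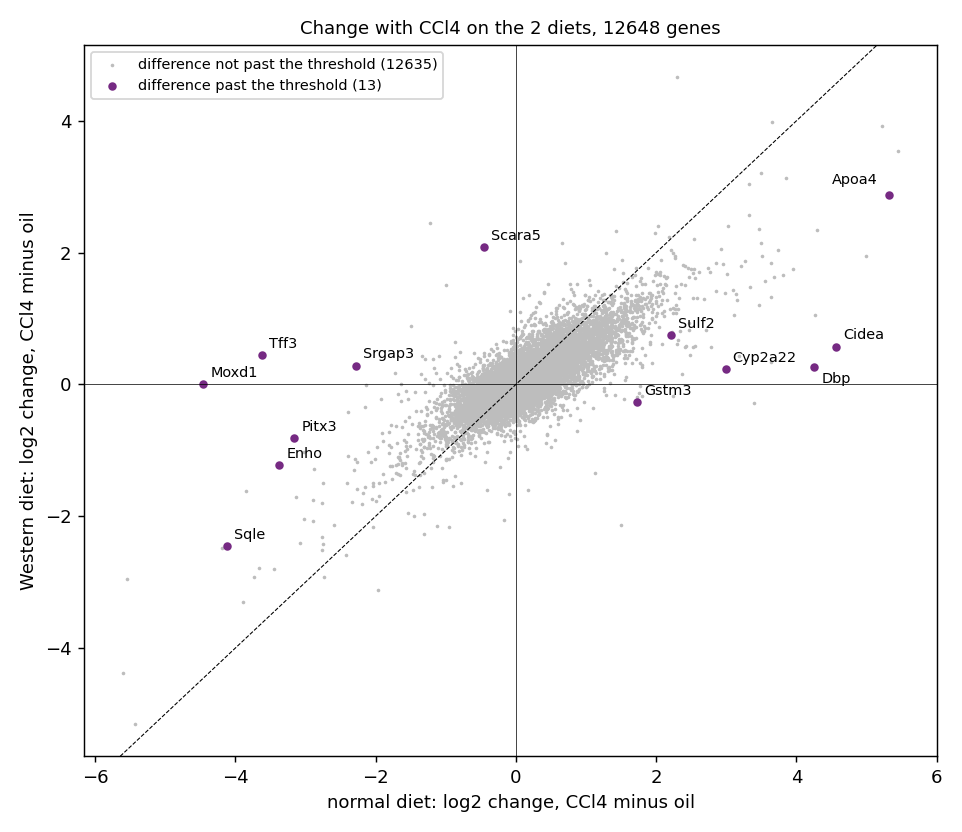
Log2 change with CCl4 on normal diet (horizontal) and on Western diet (vertical) for 12648 genes, with the 13 genes whose difference between diets was called in purple and the dashed line marking equal change. Moxd1, Tff3, Srgap3, Gstm3, Dbp, Cyp2a22 and Cidea lie between -0.27 and 0.57 on the Western diet, and Scara5 lies far above the line.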

How the data were processed

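Poly-A RNA of mouse liver was sequenced with a TruSeq kit, per the labels' protocols. The submitters' processing notes name STAR and mm10; for the read counter, annotation, strand setting and scaling nothing is stated. Deposited values are a normalised signal, that is scaled and not raw read counts, for 24062 genes in 10 libraries. Dividing each column by its smallest step gave whole reads for 100% of values, within 0.01 reads, and recovered totals of 23206229 to 30137802 reads per library. A value of 0 allows up to 3 reads; this floor and the Wilson 95% intervals take in counting error only.

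Values were taken as log2(value + 1). The filter (1 or more in 2 or more libraries) left 12648 genes. The test, two-sided, was limma 3.58.1 under R 4.3.3, with lmFit and trended eBayes, on the 8 liver pools. The model had a mean for each of the 4 diet and treatment groups plus a duration term, which pairs the pools by week as the labels give it (3 residual degrees of freedom). Benjamini-Hochberg adjustment ran across the 12648 genes, with a threshold of 0.05. On the recovered reads edgeR 4.0.16 called 3268 genes and DESeq2 1.42.0 called 3382. The other alternatives were the pseudocount, the filter, scaling, the trend, the pools in the fit and leaving out each pool, and list counts without each pool were an alternative chosen after seeing the data. The fits were tested on simulated data.

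The members, the 38 function lists and the 14 marker lists were chosen with earlier results of these data known. Of 1041 list entries 1032 matched by symbol, 6 by an older symbol and 3 (Noct, Trac and Ahsp) not at all; 913 different genes were tested, and a gene in 2 lists is counted in each. Named genes were the 15 largest rises and 15 largest falls among called genes at or above the median level, up to 4 called members of each list, the 8 widest gaps between durations in each direction, the 10 widest differences between diets, and Cyp2e1, Alb, Gapdh and Actb. Further members of a list were named after their values were seen, to show its parts. Positions and promoter windows come from RefSeq on GRCm38.p6, matched by symbol, with 12263 windows for 9574 tested genes; a gene with several windows counts if any holds the letters. Results of a few listed genes are not reported here.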

Additional observations from a re-analysis of the deposited data

Results flagged for a closer look

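For 13 genes the change with CCl4 on normal diet differed from that on Western diet by limma's test of the difference itself, each with 2 pools in each of the 4 groups. The normal-diet change minus the Western-diet change was positive for 6 of them: 4.00 for Cidea, 3.99 for Dbp, 2.75 for Cyp2a22, 2.45 for Apoa4, 2.0 for Gstm3 and 1.46 for Sulf2. It was negative for 7: -4.46 for Moxd1, -4.07 for Tff3, -2.57 for Srgap3, -2.54 for Scara5, -2.34 for Pitx3, -2.15 for Enho and -1.67 for Sqle. Adjusted p-values ran from 0.00471 for Dbp to 0.0439 for Srgap3. Pitx3 had 0.358 and 0.267 with CCl4 and 11.4 and 10.1 with oil on normal diet. It overlaps Elovl3 only at chr19:46135281-46135694, and reads in that stretch cannot be told apart here. How far such reads make up the Pitx3 values was not tested. Cyp2a22 has near-identical relatives, and which copy moved is uncertain. None of the 13 differences stayed called whichever of the 8 pools was left out.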

How the results depend on the processing

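All alternatives below are limma fits of the same contrast unless a tool is named. The 3285 called genes became 1353 with no filter and 437 with all 10 libraries in 1 fit and ran from 1021 to 3659 as each pool was left out. Without the term that blocks the pools by duration (no pairing by week) 2722 were called, and 2727 with only the 4 normal-diet pools blocked by week; the other settings gave 2491 to 3395. For the difference between diets, 13 genes became 0 with no filter (1346 with an unadjusted p below 0.05), 0 when all 10 libraries were fitted (320), 8 after quantile normalization, 7 with no trend and 132 with DESeq2, against 9 with edgeR, and ran from 0 to 79 as each pool was left out; the cause was not tested. Without the block 11 differences were called. Each fit without a pool has a group of 1 pool, whose spread is assumed equal to that of the other groups. Of 214 named genes 200 were called, and 122 of these stayed called whichever pool was left out. Of 4513 values of named genes under alternatives 3887 kept direction and side of the threshold, 586 lost and 30 gained a call, and 10 reversed, all of uncalled genes. As pools were left out Actb ran from -0.012 to 0.22, Cyp2e1 from -0.28 to 0.090, Gapdh from -0.15 to 0.92, Hspa1b from -1.42 to 1.07, Ndrg1 from -1.41 to 0.26, Ubb from -0.10 to 2.79 and Zbtb16 from -2.25 to 0.26. The reversals came without the 24-week oil pool for Actb, Ubb and Hspa1b (0.67), without the 24-week CCl4 pool for Cyp2e1, Gapdh and Hspa1b, without the 12-week oil pool for Ndrg1 and without the 12-week CCl4 pool for Zbtb16. Cyp2e1 was also at 0.50 after quantile normalization and Hspa1b at 0.0039 with edgeR. Rescaling shifted the median change of all genes by between -0.058 and 0.0072 on the log2 scale. At these depths genes with values near the floor of 3 reads carry no fold change.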
